A study of Homo sapiens with 18 samples.

Results

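KDM1A, also called LSD1, was lowered in hiF-T cells with different CRISPR guides, and the libraries of KDM1A guide 3 were compared with those of KDM1A guide 2. The members are 4 of the 18 libraries of the study, 2 for each of these guides, chosen by the target and guide number in their titles. hiF-T is an established line of human fibroblast-like cells that came from BJ skin fibroblasts and carries hTERT, the telomerase gene, under inducible control. All libraries, controls included, come from this line and are labelled wild type in genotype. The other libraries carry control guides 1 and 2 (labelled as backbone, 4 libraries), guides against CDKN1A (4 libraries) or guides against SPP1 (6 libraries), and the labels name biological replicates 1 and 2 for each of the 9 guides. The sources used here do not give how the guides lower the mRNA, whether the replicates are separate transductions, or the culture conditions. A guide therefore cannot be told apart from the culture that carried it, and the p-values measure the spread between libraries of 1 guide, which may be technical.

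KDM1A is a demethylase that removes methyl groups from histone H3, acting largely within the CoREST complex with the deacetylases HDAC1 and HDAC2, and it is best known as a repressor of genes that a cell type does not use. Fibroblasts make and remodel the extracellular matrix. When they take on a contractile, myofibroblast state, usually under TGF-beta and mechanical load, they assemble smooth muscle actin, deposit collagen and elastic fibres, and alter their protease output. Guides against 1 target need not lower it equally and can act on the rest of the transcriptome differently, which is the question a comparison of guides addresses.

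In units of 1e6, each library held 11.9 to 17.0 estimated counts, with at least 10 counts in 12478 to 13161 genes. Levels are given as CPM, the counts of a gene per 1e6 counts of its library after scaling by the TMM method, and differences as log2 fold changes of guide 3 over guide 2 from the model, with the standard error (SE). A gene is called at an adjusted p under 0.05 in edgeR's quasi-likelihood test, with the spread between libraries of a guide taken from all 18. The 14 fibroblast markers summed to 31541 to 34066 CPM in the controls, 32727 to 33457 CPM with guide 2 and 28398 to 29052 CPM with guide 3. Guide 3 thus lay below every control library but within the range of the 10 CDKN1A and SPP1 libraries, 27551 to 34009 CPM. Of these markers 4 were called lower with guide 3 (COL1A1, COL1A2, FN1 and PDGFRB; 2 to 4 over the alternative analyses) and 1 higher (PDGFRA, whose sign turned with a correction for transcript length). The 12 keratinocyte markers summed to 113 to 126 CPM in the controls, 172 to 175 CPM with guide 2 and 157 to 168 CPM with guide 3, with KRT5 and KRT1 at 0 in all 8 libraries. The 7 leukocyte markers summed to 56.2 to 65.2 CPM, 49.7 to 52.1 CPM and 56.0 to 57.7 CPM in that order, with CD3E and HBB at 0. The part of these sums in the results was not tested.

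Guide 3 left less KDM1A mRNA than guide 2. KDM1A (ENSG00000004487, GRCh38 chr1:23019443-23083689) stood at 118, 125, 120 and 110 CPM in the control libraries, at 73.4 and 75.0 CPM with guide 2 and at 50.8 and 52.1 CPM with guide 3. All 4 KDM1A libraries lay below the controls and below the 10 CDKN1A and SPP1 libraries, which ranged from 106 to 127 CPM, and the guides did not overlap. Guide 2 left 62.8% of the control level (log2 -0.67, edgeR adjusted p = 6.84e-07) and guide 3 left 43.6% (log2 -1.20, adjusted p = 5.60e-09). Guide 3 held 69.3% of the guide 2 level (log2 -0.53 ± 0.06 SE, edgeR adjusted p = 1.03e-04). An exact permutation test over these 4 libraries alone (two-sided) gave p = 0.333, the smallest value that 2 against 2 allows. With counts corrected for effective transcript length the log2 difference was -0.35 (adjusted p = 0.0236).

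The main KDM1A transcripts moved in the same order. ENST00000356634.7 stood at 30.5 ± 3.36 TPM (SD, n = 4) in the controls, a mean of 19.3 TPM with guide 2 and 14.0 TPM with guide 3. ENST00000400181.8 stood at 23.7, 16.4 and 10.2 TPM in that order. A short transcript of 905 bases, ENST00000494920.1, ran otherwise, with 6.55 to 7.92 TPM in the controls, 0 and 1.40 TPM with guide 2 and 4.77 and 6.12 TPM with guide 3. These values are kallisto's division of shared reads among transcripts, and no test was made on them.

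Of 13976 genes tested, 808 (5.78%) were called between the KDM1A guides. Of these, 273 (1.95%) were higher and 535 (3.83%) were lower with guide 3, and 103 (0.737%) also differed at least 2-fold, 32 of them higher and 71 lower. The count of calls was 270 to 316 without 1 of the KDM1A libraries, which leaves 1 library for a guide, 303 with counts corrected for effective transcript length and 1583 with the KDM1A libraries alone. Against the 4 control libraries, 1888 genes (13.5%) were called for guide 2 and 1545 (11.1%) for guide 3, with the same controls in both. The guide with the lower KDM1A level was therefore the one with fewer calls against control. With 1 library left for a guide, the count was 878 or 925 for guide 2 and 660 or 742 for guide 3, and without control guide 1 it was 1160 and 846. Guides of the same target differed in fewer genes elsewhere in the study, with 185 calls (1.32%) between the control guides, 165 (1.18%) between the CDKN1A guides, and 293 (2.10%), 362 (2.59%) and 15 (0.107%) between SPP1 guides 2 and 1, 3 and 1, and 3 and 2. Of the 808 genes, 59 were also called between the control guides, which is 7.30% of the KDM1A calls and 31.9% of the control calls. The CDKN1A pair shared 73 genes with the 808 (44.2% of its calls). The SPP1 pairs shared 89, 102 and 9 in the order above (30.4%, 28.2% and 60% of their calls). With the higher guide number over the lower, 44 of the 59 control genes changed in the direction of KDM1A guide 3 over guide 2. Such genes numbered 16 of the 73 for CDKN1A, and 68, 78 and 8 for the SPP1 pairs. These overlaps were not tested.

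The 808 genes were placed by 2 outside references. The control mean lay between the guides for 460 of them (56.9%, against 31.4% of all genes), beyond guide 2 for 128 (15.8%, against 32.1%) and beyond guide 3 for 220 (27.2%, against 36.5%). Guide 2 alone lay outside the range of the 14 libraries of other targets for 383 of the called genes (47.4%, against 10.7% of all genes), and guide 3 alone for 64 (7.92%, against 3.21%). Set against the 10 CDKN1A and SPP1 libraries only, both guide 3 libraries lay within their range for 498 called genes (61.6%) and both guide 2 libraries for 161 (19.9%). Over all genes tested these shares were 69.5% and 61.5%. All 4 control libraries lay within that range for 314 of the called genes (38.9%). For 85 of the called genes (10.5%, against 1.40% of all genes) the 10 libraries all lay beyond the controls on the side of guide 3, and for 1 on the side of guide 2. These are counts of places with no test. The called genes were chosen for a difference between the guides, which by itself sets the guides further apart than in most genes. Their shares therefore cannot be compared directly with the shares over all genes.

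**Figure D1:**
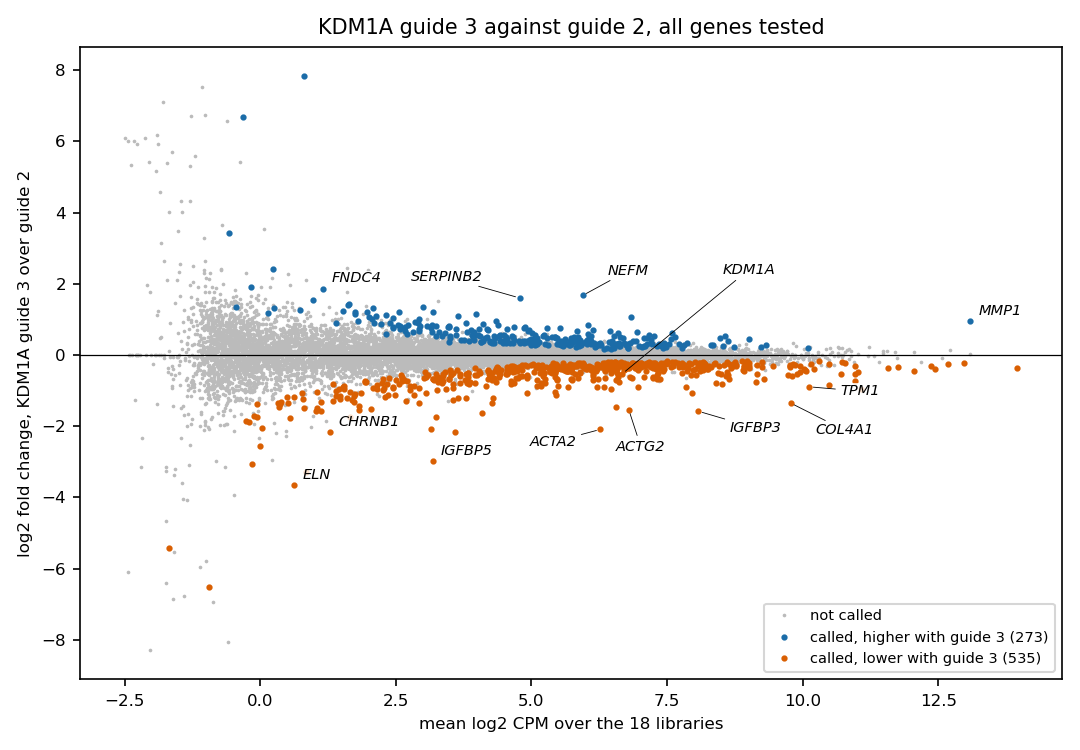
Log2 fold change of KDM1A guide 3 over guide 2 against the mean log2 CPM over the 18 libraries, 1 point per gene tested. The 273 genes called higher are blue and the 535 called lower are orange; the log2 fold changes of ELN (-3.66), IGFBP5 (-2.99) and ACTA2 (-2.09) lie far below 0 and that of MMP1 (0.96) is at the highest level among the called rises.

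The contractile genes were lower with guide 3. Of 16 tested members of this list, 11 were called lower and none higher, and the other 5 (LDB3, MYH11, SYNPO2, MYLK and VCL) also had negative log2 values. The list's median log2 difference was -0.56, against 0.00347 over all genes. Over all genes 1.95% were called higher and 3.83% lower, the shares to set beside this and every later list count. A DNA sequence read by serum response factor, the CArG box, marks many promoters of this class. It is shown for ACTG2, the enteric smooth muscle actin, whose promoter held a pair of them (in capitals, 110 to 101 and 73 to 64 bases before the start), in the 250 bases before its start at chr2:73892758-73893007, plus strand, from RefSeq on GRCh38.p14.
ACTG2: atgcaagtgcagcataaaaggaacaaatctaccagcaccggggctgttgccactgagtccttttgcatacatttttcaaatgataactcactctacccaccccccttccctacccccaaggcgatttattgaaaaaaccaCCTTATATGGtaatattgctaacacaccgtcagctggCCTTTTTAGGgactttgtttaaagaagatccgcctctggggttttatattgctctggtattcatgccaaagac
The CArG box, searched on both strands, was present in 1.16% of 35116 windows of this length. A window was found for 13 of the 16 contractile genes, and ACTG2, CNN2, FLNA, LDB3 and MYLK held one. Of the 9 called members with a window, 3 held one. A match is a description of the letters and not of binding.

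ACTA2, the smooth muscle actin that defines myofibroblasts, stood at 68.2, 63.1, 113 and 110 CPM in the controls, 294 and 307 CPM with guide 2 and 72.8 and 68.6 CPM with guide 3. Guide 2 lay far above every other library, and guide 3 lay within the range of the controls. The level with guide 3 was 4.25-fold lower than with guide 2 (log2 -2.09 ± 0.17 SE, edgeR adjusted p = 3.88e-06), and the control guides themselves differed in ACTA2 (log2 0.76 for guide 2 over guide 1, adjusted p = 0.0488). ACTG2 gave 118, 119, 121 and 128 CPM in the controls, 252 and 259 CPM with guide 2 and 88.2 and 88.3 CPM with guide 3 (log2 -1.53 ± 0.10 SE, adjusted p = 2.37e-07). For ACTG2 the controls lay between the guides and overlapped neither.

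CNN1, the actin-binding protein calponin, stood at 6.75 to 9.01 CPM in the controls, 20.9 and 19.1 CPM with guide 2 and 6.27 and 5.60 CPM with guide 3 (log2 -1.75 ± 0.20 SE). TPM1, a tropomyosin that lies along actin filaments, behaved differently against the controls. It stood at 1659, 1512, 1337 and 1381 CPM there, 1555 and 1552 CPM with guide 2 and 814 and 859 CPM with guide 3 (log2 -0.89 ± 0.06 SE, adjusted p = 2.55e-07). For TPM1 it was guide 3 that lay below the controls, next to the lowest of the 10 CDKN1A and SPP1 libraries, 832 CPM. The filament-binding genes with high levels changed less, among them TAGLN from 1188 and 1237 to 811 and 876 CPM (log2 -0.52 ± 0.14 SE, adjusted p = 0.0456).
MYL9, a light chain of myosin, fell from 562 and 608 CPM to 372 and 403 CPM (log2 -0.59 ± 0.09 SE, adjusted p = 0.00124). Of the 11 called members, the control mean lay between the guides for 10, against 56.9% of all called genes. Both guide 3 libraries lay within the range of the 10 CDKN1A and SPP1 libraries for 9, and both guide 2 libraries for 1. Over all called genes the shares within that range were 61.6% and 19.9%. Markers of pericytes and smooth muscle, cells that also carry contractile proteins, moved with this list. Of 7 tested, 3 were called lower and none higher (1 or 2 lower without 1 KDM1A library), and their sum was 782 to 799 CPM with guide 2, 585 to 618 CPM with guide 3 and 496 to 658 CPM in the controls. MYH11, the smooth muscle myosin, was at 0.635 and 0.499 CPM with guide 2 and 0.219 and 0.503 CPM with guide 3, and the part of such cells in the result was not tested. The TAGLN call held under 12 of 27 alternatives, which were other tools, scalings, filters and subsets of libraries (highest adjusted p 0.278), and the list's count of lower members ran from 7 to 13 over the alternatives.

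Basement membrane collagen was lower with guide 3. COL4A1 and COL4A2, the chains of the most widespread type IV collagen, lie head to head on chromosome 13 and share the stretch between their starts, chr13:110307158-110307283, shown from RefSeq on GRCh38.p14, plus strand, with a CCAAT and a GGGCGG match in capitals.
COL4A1-COL4A2: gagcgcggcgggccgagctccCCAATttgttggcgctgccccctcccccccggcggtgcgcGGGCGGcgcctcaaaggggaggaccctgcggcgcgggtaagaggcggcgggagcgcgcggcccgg
In the last 126 bases before a start, CCAAT occurred in 21.1% and GGGCGG in 34.6% of all windows, on either strand. COL4A1 stood at 1252, 1366, 1170 and 1128 CPM in the controls, 1542 and 1586 CPM with guide 2 and 616 and 613 CPM with guide 3 (log2 -1.35 ± 0.05 SE, edgeR adjusted p = 2.30e-09, the smallest of the named genes). The guides lay on opposite sides of the controls, and the 10 CDKN1A and SPP1 libraries ranged from 564 to 917 CPM, around guide 3. COL4A2 stood at 1737 to 1892 CPM in the controls, 1938 and 2017 CPM with guide 2 and 1127 and 1087 CPM with guide 3 (log2 -0.84 ± 0.07 SE). The models of these genes overlap at their starts, so a small part of their reads may be shared.

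Of 19 tested basement membrane genes, 4 were called lower and 1 higher, with a median of -0.16, and the count of lower members fell to 3 without 1 KDM1A library and reached 9 under another alternative. NID1, the linker protein nidogen, fell from 193 and 198 CPM to 157 and 149 CPM (log2 -0.35 ± 0.05 SE, adjusted p = 4.92e-04), which was at or just below the control range of 157 to 167 CPM. LAMC1, the common laminin gamma chain, was lower too, with 828 and 850 CPM against 692 and 665 CPM. COL4A6, a chain of a rarer type IV collagen, was the called rise, at 2.22 and 2.37 CPM with guide 2 and 5.10 and 5.53 CPM with guide 3 (log2 1.21 ± 0.25 SE, adjusted p = 0.00972). Its controls stood at 1.79 to 3.62 CPM. NID2, LAMA2 and COL4A5 had positive values that were not called. LAMC1 lost its call without any 1 of the KDM1A libraries or with the length correction (highest adjusted p 0.522), and COL4A6 with that correction or without either guide 2 library or guide 3 replicate 2 (highest 0.0928).

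**Figure D2:**
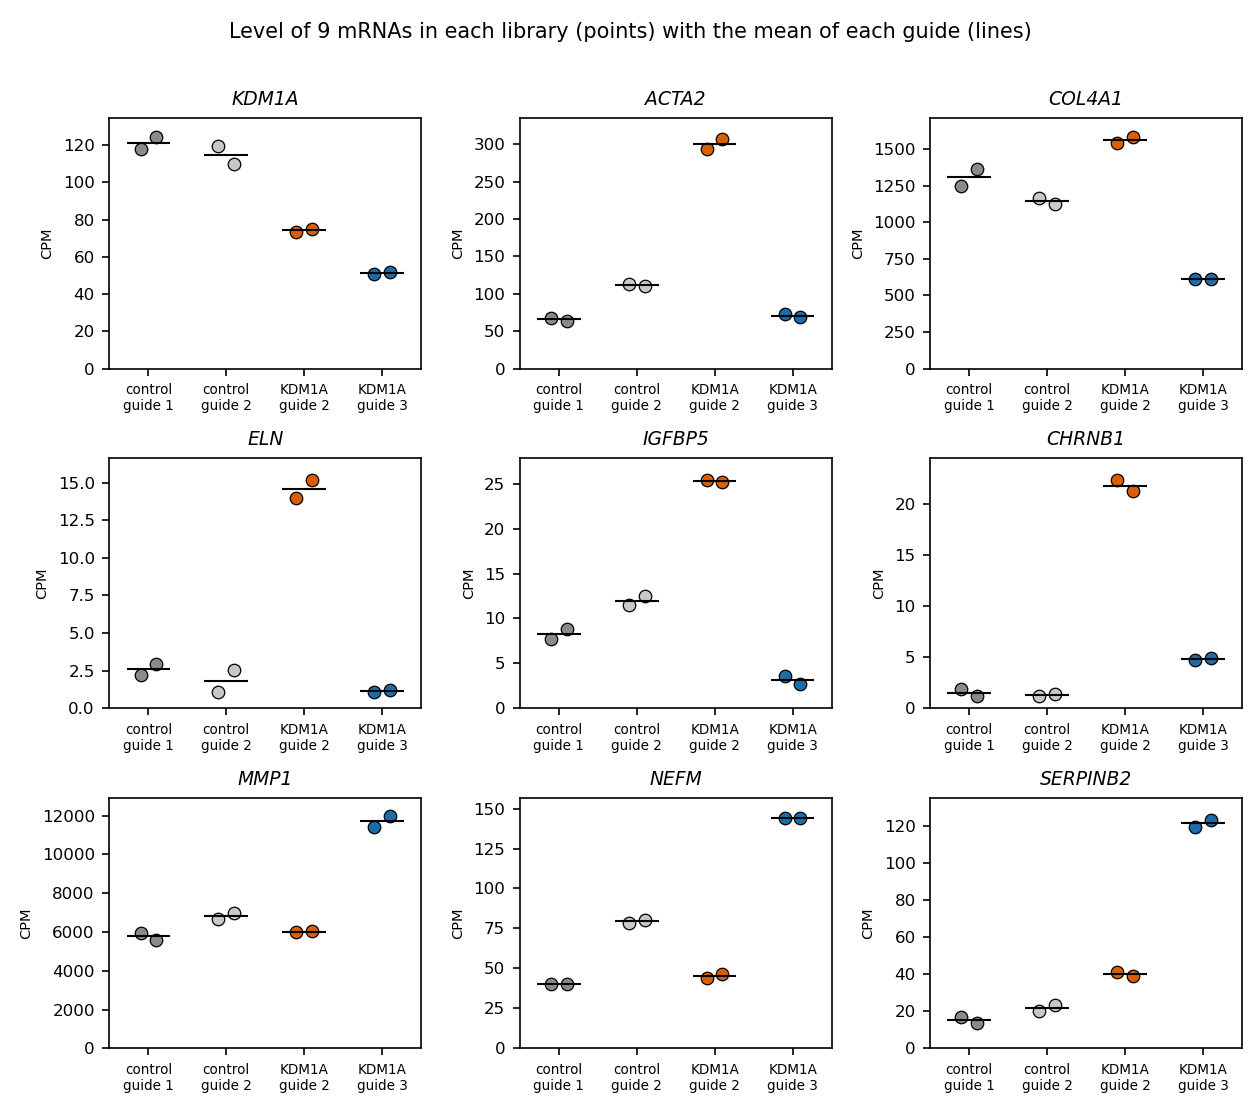
CPM of 9 mRNAs in the 4 control and 4 KDM1A libraries, 1 point per library, with a line at the mean of each guide. KDM1A steps down from control to guide 2 to guide 3, ACTA2, ELN, IGFBP5 and CHRNB1 are high with guide 2, COL4A1 is low with guide 3, and MMP1, NEFM and SERPINB2 are high with guide 3.

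Genes of elastic fibres and of the matricellular proteins that bind them were lower with guide 3. Of 26 tested, 15 were called lower and none higher, with a median of -0.41. ELN, the elastin precursor, was at 2.25, 2.92, 1.06 and 2.56 CPM in the controls, 14.0 and 15.2 CPM with guide 2 and 1.09 and 1.20 CPM with guide 3. Only guide 2 stood apart from the other libraries, which reached 2.92 CPM at most, and the model gave a 12.6-fold lower level with guide 3 (log2 -3.66 ± 0.36 SE, edgeR adjusted p = 1.89e-05).

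FBN1, the main microfibril protein, fell from 2672 and 2766 CPM to 1662 and 1621 CPM, with the controls between at 2154 to 2571 CPM (log2 -0.73 ± 0.06 SE). THBS1, thrombospondin, an activator of latent TGF-beta, stood at 2434 to 2796 CPM in the controls, 4172 and 4162 CPM with guide 2 and 2217 and 2086 CPM with guide 3 (log2 -0.95 ± 0.14 SE, adjusted p = 9.09e-04). LTBP2, a latent TGF-beta binding protein, was the converse of ELN, since guide 2 (735 and 765 CPM) lay at the controls (717 to 882 CPM) and guide 3 (485 and 458 CPM) below them. LOXL3, a lysyl oxidase that cross-links elastin and collagen, stood at 58.5 and 64.1 CPM with guide 2, 34.6 and 35.1 CPM with guide 3 and 22.3 to 26.8 CPM in the controls, so both guides lay above control.
FN1, fibronectin, the most abundant of them, fell from 16860 and 17710 CPM to 14110 and 12970 CPM (log2 -0.35 ± 0.07 SE, adjusted p = 0.00963). The lower calls of this list numbered 7 to 17 over the alternatives and 7 to 9 when a KDM1A library was left out. LOXL3 missed the threshold with the length correction (adjusted p = 0.0934), and FN1 with that correction or without replicate 2 of either guide (highest adjusted p 0.118). MFAP5, which binds microfibrils, had a log2 value of 1.35 that was not called.

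Of 15 fibrillar collagen and small proteoglycan genes, 7 were called lower with guide 3 and none higher, with a median of -0.36. COL3A1, the collagen of early and stretchy matrix, stood at 5.67 to 7.61 CPM in the controls, 70.4 and 61.9 CPM with guide 2 and 28.4 and 28.9 CPM with guide 3. Both guides were above every control library (log2 3.35 for guide 2 and 2.14 for guide 3), and guide 3 stood 2.31-fold below guide 2 (log2 -1.21 ± 0.10 SE, edgeR adjusted p = 6.36e-06). COL11A1, which nucleates fibrils, showed the same order at 233 and 247 CPM against 159 and 156 CPM (log2 -0.60 ± 0.08 SE), but its controls differed by guide, with 61.2 and 66.0 CPM for guide 1 and 133 and 124 CPM for guide 2.

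COL5A1, another fibril nucleator, fell to below the controls, from 763 and 781 CPM to 461 and 459 CPM against 605 to 731 CPM in the controls (log2 -0.75 ± 0.06 SE, adjusted p = 3.88e-06). COL1A1, the major type I collagen chain, had 5606 and 5627 CPM with guide 2, and its 4053 and 4178 CPM with guide 3 lay at the low end of the controls (4040 to 4847 CPM). The secreted proteoglycans LUM and DCN, which space collagen fibrils, gave a contrast within this list. LUM stood at 0.956 to 1.71 CPM in the controls, 21.8 and 17.9 CPM with guide 2 and 15.6 and 14.8 CPM with guide 3, and the difference between the guides was not called (log2 -0.38 ± 0.21 SE, adjusted p = 0.367). DCN stood at 3.97 to 8.70 CPM, 23.8 and 24.3 CPM, and 22.9 and 26.0 CPM in that order (log2 0.02 ± 0.21 SE, adjusted p = 0.974). LUM and DCN were thus above the controls in all 4 KDM1A libraries, without a called difference between guides.

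**Figure D3:**
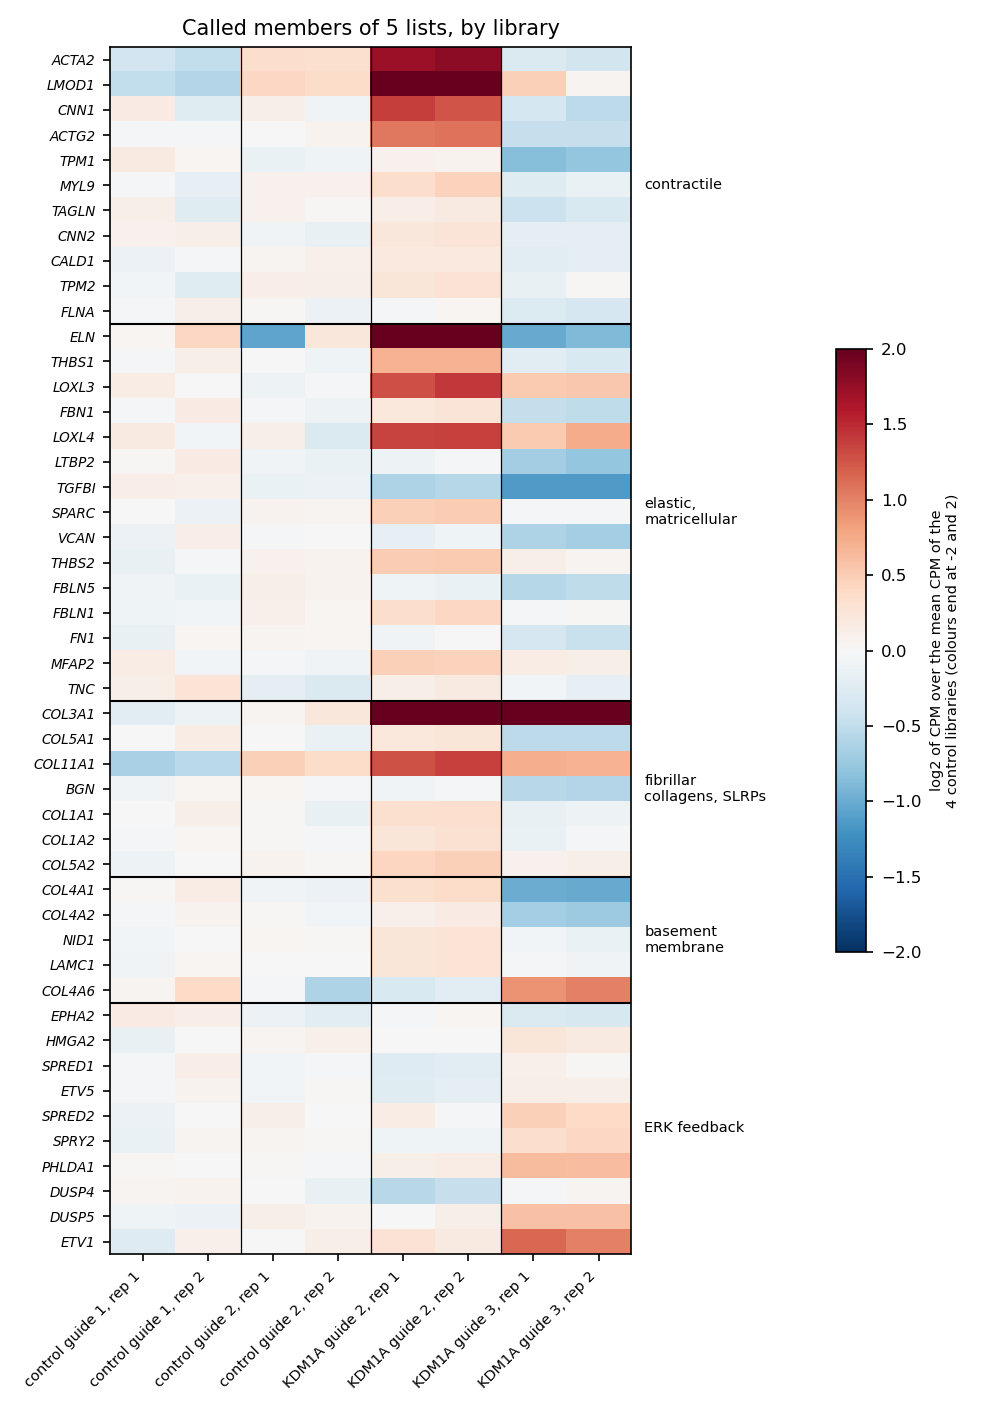
Level of the called members of 5 lists in each control and KDM1A library, as log2 of CPM over the mean of the 4 control libraries (red above, blue below, colours end at -2 and 2). Most contractile genes are pale to dark red with guide 2 and near or below the control mean with guide 3. In the elastic fibre list the control mean lies between the guides for 6 of 15 genes, beyond guide 2 for 5 and beyond guide 3 for 4. COL3A1 is red with both guides.

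Proteases split. Of 22 tested genes of matrix proteases and their inhibitors, 3 were called higher with guide 3 and 5 lower. MMP1, the interstitial collagenase that cleaves fibrillar collagen, stood at 5924, 5605, 6653 and 6994 CPM in the controls, 6003 and 6034 CPM with guide 2 and 11420 and 11990 CPM with guide 3. Guide 2 lay within the controls and guide 3 above them, near the top of the CDKN1A and SPP1 libraries, which ran from 8439 to 11590 CPM. The control guides differed in MMP1 too (log2 0.24 for guide 2 over guide 1, edgeR adjusted p = 0.0189). MMP1 was 1.94-fold higher with guide 3 (log2 0.96 ± 0.05 SE, edgeR adjusted p = 2.31e-08). MMP3, stromelysin, which activates the collagenase, gave 2.62 and 2.62 CPM with guide 2 and 6.56 and 6.73 CPM with guide 3 (log2 1.34 ± 0.15 SE), both below the controls at 8.56 to 10.6 CPM. The MMP3 call was lost with the length correction (adjusted p = 0.243).

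SERPINB2, an inhibitor of plasminogen activators, stood at 13.9 to 23.6 CPM in the controls, 41.1 and 38.9 CPM with guide 2 and 120 and 123 CPM with guide 3. It was above the controls with both guides and 3.04-fold higher with guide 3 (log2 1.60 ± 0.31 SE, adjusted p = 0.00627), but its call was lost without either guide 2 library or guide 3 replicate 2 (highest adjusted p 0.0902). SERPINE2, which inhibits thrombin, was at 1314 and 1306 CPM with guide 2, and its 882 and 886 CPM with guide 3 lay at the low end of the controls (883 to 930 CPM). MMP2, a gelatinase, fell from 678 and 684 CPM to 482 and 459 CPM, and ADAM12, a membrane protease, from 117 and 116 CPM to 89.3 and 84.1 CPM. TIMP3, a matrix-bound metalloproteinase inhibitor, was called lower at the edge of detection, with 0.635 and 0.811 CPM against 0.146 and 0 CPM and 1.43 to 3.57 CPM in the controls. Its call was lost without replicate 2 of either guide (highest adjusted p 0.143).

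Integrins, the receptors that tie cells to this matrix, were called lower in 4 and higher in 2 of 17 genes tested together with osteopontin, with 2 to 7 lower calls over the alternatives. ITGA7, a laminin receptor chain of muscle, stood at 1.57 to 2.72 CPM in the controls, 17.7 and 16.9 CPM with guide 2 and 8.23 and 8.24 CPM with guide 3 (log2 -1.07 ± 0.18 SE, edgeR adjusted p = 0.00198). ITGB3, a vitronectin and osteopontin receptor chain, fell from 20.3 and 20.4 CPM to 13.2 and 11.9 CPM (log2 -0.70). Its controls lay above both guides at 22.3 to 35.8 CPM and differed by guide (log2 -0.65 for guide 2 over guide 1, edgeR adjusted p = 0.00593). ITGA10 and ITGA2, both collagen receptor chains, were the rises. ITGA2 stood at 44.8 to 51.0 CPM in the controls, 66.2 and 63.5 CPM with guide 2 and 106 and 104 CPM with guide 3 (log2 0.70 ± 0.15 SE, adjusted p = 0.0109). SPP1, which encodes osteopontin, stood at 135 and 134 CPM with guide 2 and 126 and 134 CPM with guide 3, above the controls at 55.2 to 72.7 CPM, with no called difference between guides (log2 -0.05 ± 0.25 SE). The ITGA2 call was lost without any 1 of the KDM1A libraries (highest adjusted p 0.112), and that of ITGA7 with the length correction (adjusted p = 0.130).

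**Figure D4:**
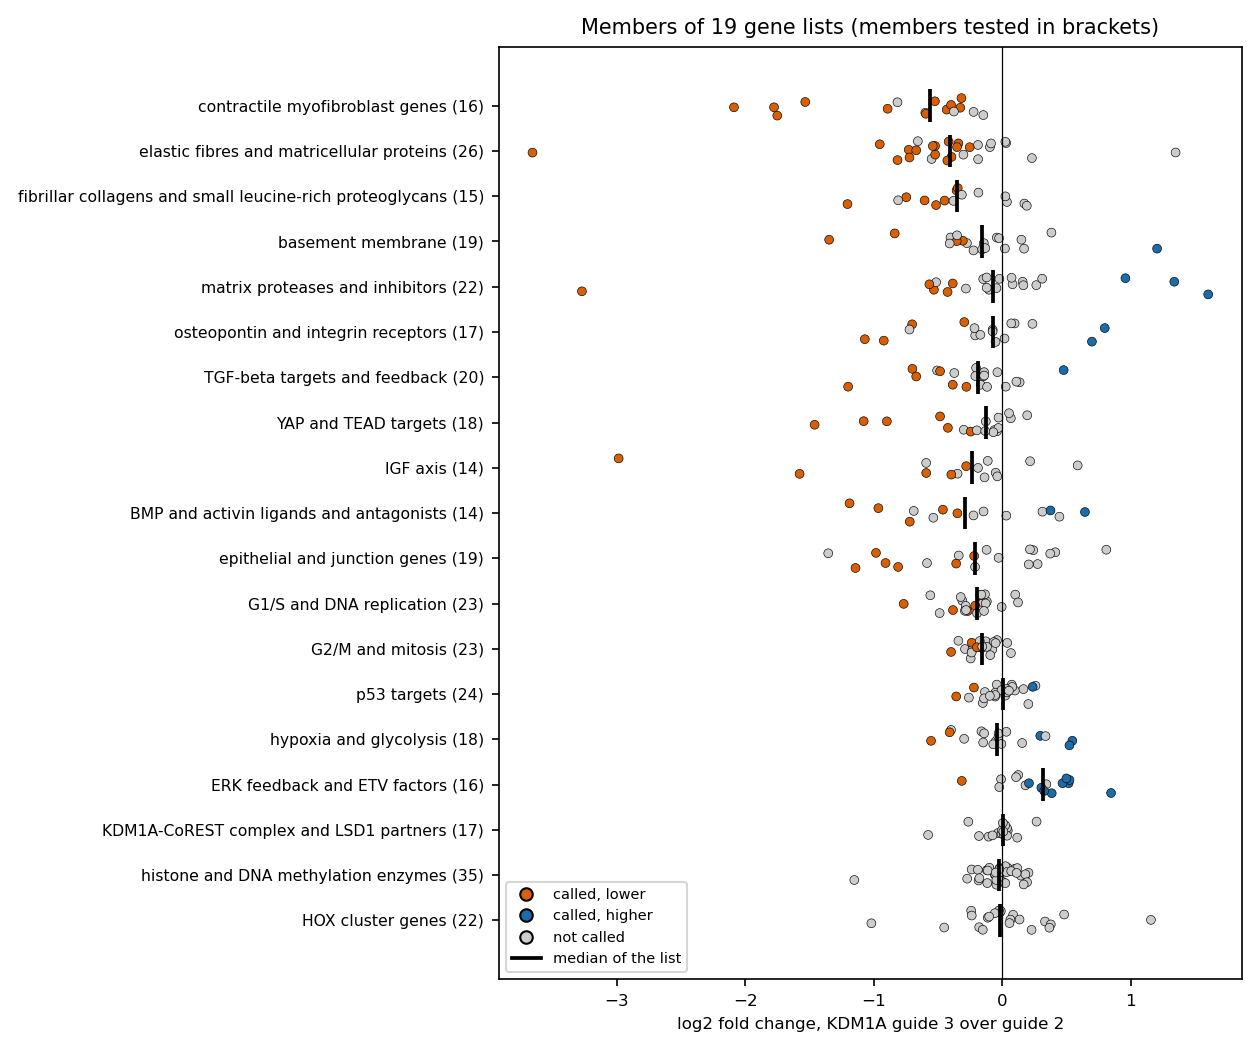
Log2 fold change of guide 3 over guide 2 for each tested member of 19 gene lists, with the number tested in brackets and a bar at the list's median. Called members of the contractile list (11) and of the elastic fibre list (15) lie only to the left of 0, while 9 of the 10 called members of the ERK feedback list lie to the right.

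TGF-beta drives the myofibroblast state, and its ligand, receptor and feedback genes were called lower in 6 and higher in 1 of 20 genes, with a median of -0.19 and 4 to 9 lower calls over the alternatives. TGFB2, a ligand, reached at most 16.8 CPM in the controls and stood at 22.1 and 22.8 CPM with guide 2 and 10.7 and 8.87 CPM with guide 3 (log2 -1.20 ± 0.17 SE, edgeR adjusted p = 5.18e-04). TGFB1, the main ligand, was at 266 and 257 CPM against 215 and 216 CPM. Its call held under 20 of 27 alternatives and was lost with the length correction and without any 1 of the KDM1A libraries, control guide 2 replicate 2 or CDKN1A guide 2 replicate 1 (highest adjusted p 0.216). TGFBR2, the receptor that binds the ligand, was the rise, at 259 to 303 CPM in the controls, 288 and 289 CPM with guide 2 and 413 and 392 CPM with guide 3 (log2 0.48 ± 0.06 SE, adjusted p = 2.91e-04). SMAD7, the feedback inhibitor of the receptor, fell from 97.9 and 92.5 CPM to 59.4 and 57.8 CPM, with the controls at 83.1 to 92.5 CPM. The SMAD7 call was lost with the length correction (adjusted p = 0.194). CCN2, a matricellular target, fell from 1173 and 1191 CPM to 850 and 841 CPM. Both guides lay below its controls at 1228 to 1484 CPM, which differed by guide (log2 -0.26 for guide 2 over guide 1, edgeR adjusted p = 0.0306). The receptor thus moved opposite to the ligands and CCN2. For all 7 called members the guide 3 mean lay nearer than the guide 2 mean to the median of the 10 CDKN1A and SPP1 libraries, as for 84.0% of all called genes. Both guide 3 libraries lay within the range of those 10 for 6 members, both guide 2 libraries for 3 and the 4 control libraries for 1. Over all called genes these shares were 61.6%, 19.9% and 38.9%. The calls LTBP2 and CCN2 also stand in the matrix or YAP lists.

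YAP and TEAD, the transcription factors that respond to stretch and stiffness, share CCN2 as a target. Of 18 tested targets 6 were called lower and none higher, with a median of -0.13, and the lower count ran from 3 to 8 over the alternatives. ANKRD1, an ankyrin repeat protein of stretched muscle, stood at 126 to 146 CPM in the controls, 267 and 264 CPM with guide 2 and 95.3 and 97.4 CPM with guide 3 (log2 -1.46 ± 0.16 SE, edgeR adjusted p = 4.25e-05). Its guides lay on opposite sides of the controls. GADD45B, a stress-induced gene, stood at 50.2 and 48.1 CPM with guide 2, within the control range of 40.2 to 50.7 CPM. With guide 3 it stood at 21.6 and 24.8 CPM (log2 -1.08 ± 0.11 SE), within the 20.3 to 30.5 CPM of the 10 CDKN1A and SPP1 libraries. Of the 6 called targets, both guide 3 libraries lay within the range of those 10 libraries for 4, and both guide 2 libraries for 0. The 4 control libraries lay within it for 0. Over all called genes these shares were 61.6%, 19.9% and 38.9% in that order. DKK1, a secreted WNT antagonist, fell from 156 and 159 CPM to 83.9 and 84.9 CPM, but the control guides alone spanned 122 to 300 CPM (log2 -1.13 for control guide 2 over guide 1). The DKK1 call was lost without either guide 3 library (highest adjusted p 0.0556).

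Binding proteins of the insulin-like growth factors were among the largest falls, and 5 of 14 genes of the IGF axis were called lower and none higher (median -0.23), and 3 were lower without any 1 of the KDM1A libraries. IGFBP5, which also binds matrix, stood at 7.71, 8.84, 11.5 and 12.5 CPM in the controls, 25.4 and 25.2 CPM with guide 2 and 3.64 and 2.77 CPM with guide 3. Guide 2 lay above and guide 3 below every other library, a 7.93-fold difference (log2 -2.99 ± 0.29 SE, edgeR adjusted p = 2.01e-05). IGFBP3, the main carrier in blood, stood at 302 to 392 CPM in the controls, 831 and 842 CPM with guide 2 and 284 and 276 CPM with guide 3 (log2 -1.58 ± 0.09 SE, adjusted p = 1.14e-07). STC2, which blocks the pappalysin proteases that cleave IGF binding proteins, was above the controls (897 to 981 CPM) with both guides, at 1491 and 1540 CPM and at 1143 and 1160 CPM.

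Ligands and antagonists of the BMP and activin branch were called lower in 5 and higher in 2 of 14 genes (median -0.29), and without single libraries or under other settings the lower count fell to as few as 1. FSTL3, an activin antagonist, fell from 169 and 171 CPM to 86.9 and 87.5 CPM (log2 -0.96 ± 0.10 SE, edgeR adjusted p = 2.14e-05). Its control guides lay apart, at 142 and 131 CPM and at 99.0 and 89.0 CPM. GDF6, a BMP ligand, and NOG, noggin, the BMP antagonist, were lower as well, at 8.58 and 9.29 against 4.01 and 3.84 CPM and at 39.5 and 36.2 against 22.7 and 23.1 CPM. Their controls lay between the guides, at 5.73 to 7.38 CPM and at 26.0 to 34.3 CPM. FST, follistatin, another activin antagonist, moved the opposite way to FSTL3, at 63.2 and 68.9 CPM with guide 2 and 97.3 and 109 CPM with guide 3, below the controls at 143 to 190 CPM with both guides (log2 0.64 ± 0.15 SE, adjusted p = 0.0172). GDF6 lost its call without replicate 2 of either guide (highest adjusted p 0.0563), NOG without guide 2 replicate 1 or either guide 3 library (0.0708), and FST without either guide 2 library or guide 3 replicate 2 (0.157).

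Genes that ERK signalling induces, including its own feedback inhibitors, were higher with guide 3. Of 16 tested, 9 were called higher and 1 (EPHA2, an ephrin receptor) lower, with a median of 0.32, and the higher count fell to 4 or 5 without single KDM1A libraries and ran from 4 to 11 over the alternatives. PHLDA1, a target of growth factor signalling, stood at 159 to 164 CPM in the controls, 175 and 178 CPM with guide 2 and 252 and 248 CPM with guide 3 (log2 0.50 ± 0.05 SE, edgeR adjusted p = 2.14e-05). DUSP5, a phosphatase of nuclear ERK, stood at 51.7 to 60.9 CPM, 56.0 and 60.9 CPM, and 84.2 and 84.1 CPM in that order (log2 0.52 ± 0.06 SE, adjusted p = 7.82e-05). Guide 2 lay at or just above the controls for both genes. The 10 CDKN1A and SPP1 libraries ranged from 173 to 252 CPM for PHLDA1 and from 47.6 to 95.3 CPM for DUSP5. For all 10 called members of the list, the guide 3 mean lay nearer than the guide 2 mean to the median of those libraries. This held for 84.0% of all called genes. Both guide 3 libraries lay within their range for 6 of the called members, and both guide 2 libraries for 3. Over all called genes these shares were 61.6% and 19.9%.

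SPRY2, a feedback inhibitor of growth factor receptors, rose from 54.8 and 54.8 CPM, within the controls, to 74.4 and 77.3 CPM (log2 0.47 ± 0.07 SE, adjusted p = 5.71e-04). ETV1, a transcription factor of the ETS family, rose from 17.2 and 16.0 CPM to 31.3 and 28.4 CPM, with the controls at 11.7 to 15.3 CPM (log2 0.85 ± 0.12 SE, adjusted p = 7.04e-04), and lost its call with the length correction (adjusted p = 0.208). DUSP4, a related phosphatase, showed another order, since guide 2 at 25.5 and 27.1 CPM lay below the controls (33.8 to 39.0 CPM) and guide 3 at 36.5 and 38.9 CPM lay within them. Upstream of ERK, the receptor EGFR stood at 200 to 250 CPM in the controls, 183 and 189 CPM with guide 2 and 251 and 223 CPM with guide 3 (log2 0.35 ± 0.09 SE, adjusted p = 0.0276). ERBB2, another receptor, stood at 21.6 to 26.2 CPM in the controls, with means of 14.4 CPM with guide 2 and 21.1 CPM with guide 3. For guide 3 against control neither was called (edgeR adjusted p = 0.841 and 0.225). Between the guides both receptors were called higher with guide 3, and the ligand NRG1 was called lower. These were 3 of 12 genes of the EGF family, and none of the 3 calls held with the length correction or without guide 2 replicate 1 (highest adjusted p 0.234 for EGFR, 0.107 for ERBB2 and 0.234 for NRG1). DUSP4 lost its call without either guide 2 library or guide 3 replicate 2 (highest adjusted p 0.122).

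NEFM, a neurofilament subunit that REST keeps silent outside neurons, was the only called member of 11 tested neuronal REST targets. Over all genes 5.78% were called, and the median of this list was 0.02. NEFM stood at 40.3, 40.3, 78.2 and 80.5 CPM in the controls, 43.8 and 46.5 CPM with guide 2 and 144 and 144 CPM with guide 3 (log2 1.67 ± 0.09 SE, edgeR adjusted p = 2.82e-08). Guide 3 lay above all other libraries, of which the CDKN1A and SPP1 libraries ranged from 20.6 to 105 CPM, but the control guides differed by 0.98 in log2. CHRNB1, a subunit of the muscle acetylcholine receptor, stood at 1.18 to 1.91 CPM in the controls, 22.3 and 21.3 CPM with guide 2 and 4.74 and 4.91 CPM with guide 3 (log2 -2.17 ± 0.18 SE, adjusted p = 3.88e-06). Both guides lay above every other library for CHRNB1, and guide 2 by much more.

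CLDN1, a tight junction protein of epithelia, followed the same order, with 7.31 to 12.9 CPM in the controls, 68.5 and 69.8 CPM with guide 2 and 40.6 and 38.3 CPM with guide 3 (log2 -0.81 ± 0.14 SE, adjusted p = 0.00222). JUP, the junction protein plakoglobin, stood at 1.43 to 2.23 CPM, 10.8 and 10.8 CPM, and 5.90 and 5.60 CPM, and lost its call with the length correction, under DESeq2, and without any 1 of the KDM1A libraries (highest adjusted p 0.488). Of 19 epithelial and junction genes 6 were called lower and none higher (median -0.21), though the lower count ran from 1 to 7 over the alternatives. FOXF1, a transcription factor of visceral mesenchyme, was a rise from 4.92 and 5.92 CPM to 13.3 and 12.1 CPM (log2 1.22 ± 0.14 SE, adjusted p = 7.61e-05). Its controls lay between the guides at 6.1 to 10.1 CPM and differed by guide too (log2 0.61). SERINC2, a membrane protein, stood at 12.4 to 20.2 CPM in the controls, 62.9 and 64.5 CPM with guide 2 and 21.7 and 19.8 CPM with guide 3. KRT81, a hair keratin, was at 33.1 and 34.4 CPM with guide 2 and 6.63 and 8.43 CPM with guide 3, while control guide 1 gave 34.3 and 28.0 CPM and control guide 2 gave 9.48 and 9.55 CPM. For KRT81 the KDM1A guides thus spanned what the control guides spanned (log2 -1.71 for control guide 2 over guide 1).

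Fewer members moved in the cell cycle lists. Of 23 G1/S genes 4 were called lower and none higher (median -0.20), and of 23 G2/M genes 3 were lower (median -0.16). In each list 21 of 23 values lay below 0. Over all 13976 genes tested, 3.83% were called lower and 6867 values lay below 0. Without 1 KDM1A library the lower calls fell to 1 or 2 in G1/S and to 0 or 1 in G2/M, and with the KDM1A libraries alone both lists reached 9. CDC6, which loads the replicative helicase, fell from 82.3 and 78.6 CPM to 61.4 and 61.8 CPM (log2 -0.38 ± 0.07 SE, edgeR adjusted p = 0.00238), with the controls at 64.5 to 81.3 CPM. CCNA2, cyclin A, fell from 184 and 176 CPM to 134 and 138 CPM, below the controls at 154 to 168 CPM, and lost its call without replicate 1 of either guide (highest adjusted p 0.0838). CDKN1A, the p53-induced inhibitor that another arm of the study targets, was at 498 and 528 CPM against 466 and 458 CPM and was not called (log2 -0.15 ± 0.09 SE, adjusted p = 0.447). E2F2, a G1/S transcription factor, lies 423 kb from KDM1A. It and EPHB2, an ephrin receptor 97.9 kb away, were the called genes among 10 tested within 500 kb, against 5.78% of all genes. Their log2 values were -0.77 (adjusted p = 0.0111) and -0.31 (adjusted p = 0.00746) in that order. E2F2 stood at 2.73 to 4.44 CPM in the controls, with means of 7.12 CPM with guide 2 and 4.20 CPM with guide 3. Against control E2F2 was called for guide 2 (edgeR adjusted p = 1.89e-04) and not for guide 3 (adjusted p = 0.422). E2F2 lost its call with the length correction, under DESeq2, and without guide 2 replicate 2 or either guide 3 library (highest adjusted p 0.162), and EPHB2 without guide 2 replicate 2 or guide 3 replicate 1 (highest 0.134).

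The partners of KDM1A were not called, and no list was tested against the share over all genes. Over all 13976 genes tested, 808 (5.78%) were called and 2562 had an unadjusted p under 0.05. Of 17 tested genes of the CoREST complex and other partners, edgeR called 0, with 2 at an unadjusted p under 0.05 and 0 calls from DESeq2 or limma-voom. GSE1, a component of the complex, came nearest, at 60.4 and 60.6 CPM with guide 2 and 51.9 and 48.9 CPM with guide 3 (log2 -0.26 ± 0.09 SE, edgeR adjusted p = 0.119). Its controls stood at 43.82 to 52.65 CPM, below guide 2 and around guide 3. Of 35 histone and DNA methylation enzymes edgeR also called 0, with 4 at an unadjusted p under 0.05 and 0 calls from DESeq2 or limma-voom. The same held for 22 HOX genes, with 4 at an unadjusted p under 0.05 and no call by either other tool. Of 21 genes of the type I interferon response edgeR called 0, with 5 at an unadjusted p under 0.05 and 1 limma-voom call. With the KDM1A libraries alone, 1 gene was called lower in the partner list and 1 in the methylation list. In all, 30 of 41 lists held a called member in the main fit.

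**Figure D5:**
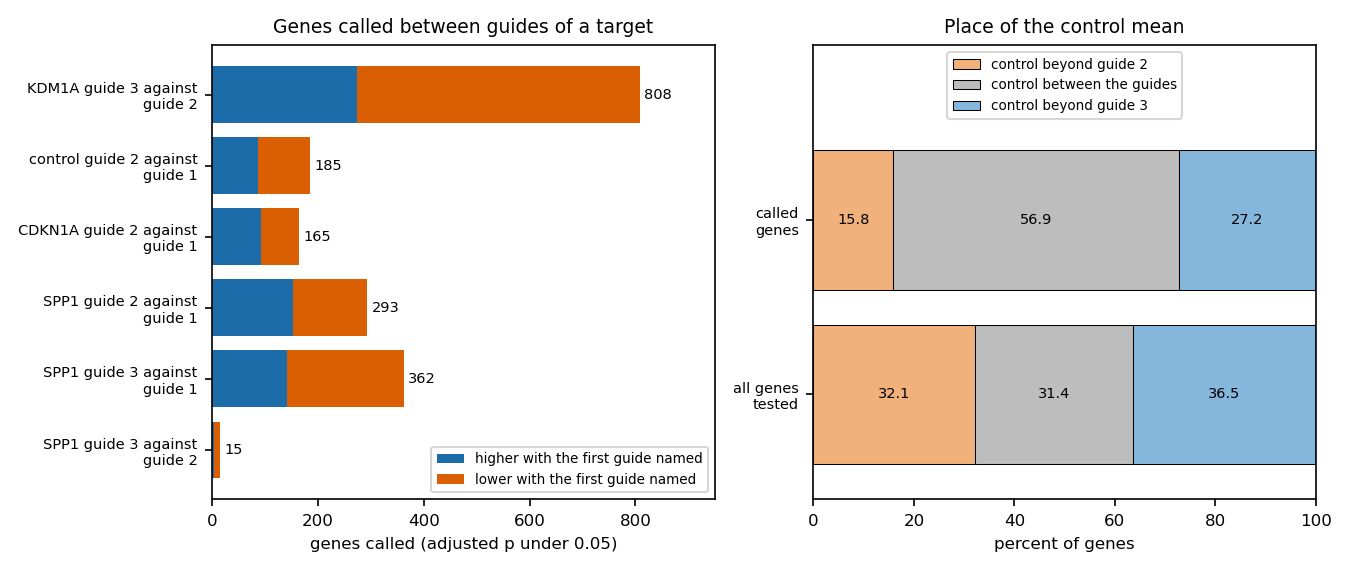
Genes called between guides of the same target in each pair, and the place of the control mean for the KDM1A calls beside all genes tested. The KDM1A pair has 808 calls, against 15 to 362 in the other pairs, and the control mean lies between the KDM1A guides for 56.9% of the calls. The calls were chosen for a gap between the guides, which by itself can raise this share.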

How the data were processed

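The authors deposited 1 kallisto table per library with estimated counts (expected counts, not whole and not scaled to depth), TPM and effective lengths for 188753 transcripts. The build is GRCh38 per the submitters' processing notes; the sources used here do not give kallisto's version, settings or transcriptome. Transcripts were matched to genes with GENCODE 29 (169797 matched, 90.0%; 2.49 to 2.62% of a library's counts were unmatched and left out), and estimated counts were summed per gene and rounded. With edgeR 4.0.16 in R 4.3.3, genes passing filterByExpr by guide with a count minimum of 10 were kept (13976), TMM scaled the libraries, and 1 quasi-likelihood fit over all 18 had a coefficient for each guide and no block. Its common dispersion was 0.00478. Adjusted p-values are Benjamini-Hochberg over all genes tested. The SE was computed from the log2 fold change and the F statistic, and TPM were only described. The test was checked on simulated data.

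Genes taken as named were KDM1A, the 15 largest called changes each way whose mean log2 CPM reached 1, up to 4 called members per list (or its smallest p), and called genes within 500 kb of KDM1A, 126 beside KDM1A. Not all are printed above. Of the largest rises FNDC4, PCSK5, CARMIL2, ABCA8, PLCH2, TMEM132B, TMEM98, ARHGEF6 and SGCD are left out. Of the largest falls PRR15, TENM2, CADM1, PHETA2, NRXN3 and TMEM200C are left out. FNDC4, the largest rise (log2 1.865), stood at 1.94 to 2.39 CPM in the controls. It gave 0.56 and 0.44 CPM with guide 2 and 1.46 and 2.14 CPM with guide 3. Another 21 list members (such as TAGLN, MYL9, THBS1, FN1, LOXL3, MMP2, ADAM12, ITGA2, TGFB2, TGFBR2, FST, DUSP4, LAMC1, TIMP3 and TGFB1) and the values of LUM, DCN, MFAP5, SPP1 and CDKN1A were chosen after their values were seen. Members and lists were chosen with earlier results of these data known. Alternatives were DESeq2 1.42.0, limma-voom (limma 3.58.1), other scaling and filters, a length correction, subsets of libraries and leaving out each library. Replicate numbers were not taken to pair the libraries. The replicate 1 minus replicate 2 differences correlated at 0.0494 between KDM1A guides 2 and 3, and from -0.308 to 0.136 over 36 guide pairs. Low correlations cannot exclude that same-numbered libraries were processed together. A result on 1 gene is not reported here.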

Additional observations from a re-analysis of the deposited data

How the results depend on the processing

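The 808 calls between the KDM1A guides became 303 with the transcript length correction (278 shared with the 808), 1583 with the KDM1A libraries alone (789 shared) and 270 to 1176 when each library was left out in turn, all 4 of the lowest counts being those without a KDM1A library. DESeq2 called 617 and limma-voom 815. Against control, the 1888 calls of guide 2 became 1160 without control guide 1 and 878 to 2403 with single libraries left out, and the 1545 of guide 3 became 846 and 660 to 2012. A fit with the replicate number as a block gave 715, 1772 and 1439 calls for these comparisons and left KDM1A at -0.53 (adjusted p = 2.23e-04). The replicate 1 minus replicate 2 differences correlated at 0.0494 between the KDM1A guides, and the numbers were not taken to pair libraries. PDGFRA changed sign with the length correction (log2 -0.028, adjusted p = 0.975, against 0.81). Of 136 called genes named, 57 were called under every alternative run and 72 lost their call without at least 1 KDM1A library. The causes were not tested. Depth limits genes near 1 CPM, where 1 library decides the mean.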

Other observations

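Hypoxia and glycolysis genes split between the guides, with 3 of 18 called higher and 2 lower with guide 3, and with 0 to 2 higher and 1 lower without 1 KDM1A library. BNIP3, a mitophagy receptor, PDK1, which holds pyruvate out of mitochondria, and NDRG1, a stress-induced gene, were the rises. NDRG1 stood at 31.6 to 44.5 CPM in the controls, 25.4 and 24.9 CPM with guide 2 and 35.6 and 37.8 CPM with guide 3 (log2 0.55 ± 0.12 SE, edgeR adjusted p = 0.0128). For these 3 genes guide 2 lay below the controls and guide 3 within them. Each of the 3 calls was lost with the length correction and without either guide 2 library or guide 3 replicate 2 (highest adjusted p 0.130 for BNIP3, 0.437 for PDK1 and 0.120 for NDRG1). SLC2A1, the glucose transporter, moved the other way, at 260 to 284 CPM in the controls, 364 and 364 CPM with guide 2 and 250 and 246 CPM with guide 3 (log2 -0.55 ± 0.08 SE, adjusted p = 4.27e-04). Of 18 inflammatory and prostaglandin genes 3 were called higher and 1 lower, and without 1 KDM1A library 0 or 1 were higher. The rises PTGS2, the inducible prostaglandin synthase, and IL11, a cytokine, both lost their calls without any 1 of the KDM1A libraries, and IL11 was called under 8 of 27 alternatives. NFKBIA, the inhibitor of NF-kappaB, fell from 37.7 and 37.7 CPM to 25.6 and 24.4 CPM with the controls between at 30.6 to 36.9 CPM (log2 -0.59 ± 0.09 SE, adjusted p = 9.87e-04). CXCL3, a chemokine of neutrophils, stood at 2.37 to 3.14 CPM in the controls. It gave 1.35 and 1.19 CPM with guide 2 and 3.72 and 2.96 CPM with guide 3. The difference between the guides (log2 1.39 ± 0.25 SE, edgeR adjusted p = 0.00350) lost its call without guide 2 replicate 2. Against control CXCL3 was called lower for guide 2 (edgeR adjusted p = 0.00483) and was not called for guide 3 (adjusted p = 0.371).

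Of 15 genes of iron storage and the oxidative stress response, 3 were called lower and none higher, and 1 was lower without any 1 of the KDM1A libraries. HMOX1, which degrades haem, stood at 45.5 to 60.8 CPM in the controls, 39.3 and 43.1 CPM with guide 2 and 23.3 and 24.1 CPM with guide 3 (log2 -0.80 ± 0.08 SE, adjusted p = 3.52e-05). The 10 CDKN1A and SPP1 libraries ranged from 18.7 to 81.2 CPM. The control guides differed in HMOX1 (log2 -0.36 for guide 2 over guide 1, edgeR adjusted p = 0.0375). Of 23 cholesterol and fatty acid genes 3 were called lower (1 or 2 without 1 KDM1A library), led by SC5D, a late enzyme of cholesterol synthesis, from 64.9 and 64.3 CPM to 47.3 and 46.0 CPM against 54.1 to 55.7 CPM in the controls (log2 -0.47 ± 0.07 SE), a call lost with the length correction (adjusted p = 0.0678). CLU, the secreted chaperone clusterin, was the called member of 9 complement genes, at 29.6 to 37.5 CPM in the controls, 71.8 and 76.8 CPM with guide 2 and 42.0 and 49.2 CPM with guide 3. Over all genes tested 1.95% were called higher and 3.83% lower, and no list here was tested against these shares. NOMO1, at 56.9 and 17.2 CPM with guide 2 and 6.34 and 10.7 CPM with guide 3, ranged down to 0 in other libraries, has near-identical copies and is uncertain.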
